A study of Mus musculus with 2 samples.

Results

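The genes described here are the 8 of the calcitonin, calcitonin gene-related peptide (CGRP) and adrenomedullin system, taken by symbol from the 22740 genes of the deposited table. They are 3 ligand genes (Calca, Calcb and Adm), 2 receptor genes (Calcr and Calcrl) and 3 genes for receptor activity-modifying proteins, or RAMPs (Ramp1, Ramp2 and Ramp3). RNA was measured by sequencing in the whole uterus of 2 C57BL/6 mice on day 4 of pregnancy. The libraries are titled WT1 and WT2 and are called uterus 1 and uterus 2, 1 library per animal. Both belong to 1 group with no other genotype and no treatment, so the data give levels and the spread between 2 animals, and no condition is compared.

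The peptides of this family act through class B receptors, which sit in the cell membrane and signal mainly through the G protein Gs and cyclic AMP. The protein of Calcrl reaches the cell surface and binds its ligand only together with a RAMP: with RAMP1 it forms the CGRP receptor, and with RAMP2 or RAMP3 a receptor for adrenomedullin. The protein of Calcr binds calcitonin by itself and amylin when paired with a RAMP. CGRP and adrenomedullin widen blood vessels, calcitonin rises in the rat uterus under progesterone before implantation, and female mice with a reduced dose of Adm have lower fertility.

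Values are the authors' RPKM, which divide the reads of a gene by a length given to that gene and by the size of the library. Whole reads that fit each value were estimated from the deposited numbers. They are exact only up to a whole multiple, which was chosen by annotated length, and they give 95% exact Poisson intervals that cover counting error only. The RAMP genes and Calcrl rested on 74 to 526 reads per library, and the ligand genes on 1 to 49. A gene was called detected at 1 RPKM or more in both uteri. By that rule 6 of the 8 genes were detected, against 58.4% of all genes in the table. The uterine genes Esr1, Pgr, Hoxa10 and Hoxa11 were all detected, with a summed level of 375 and 351 RPKM. The table lists some genes at 0 that cells in general use, such as the ribosomal protein gene Rpl26, so a listed 0 is not read as absence.

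**Figure D1:**
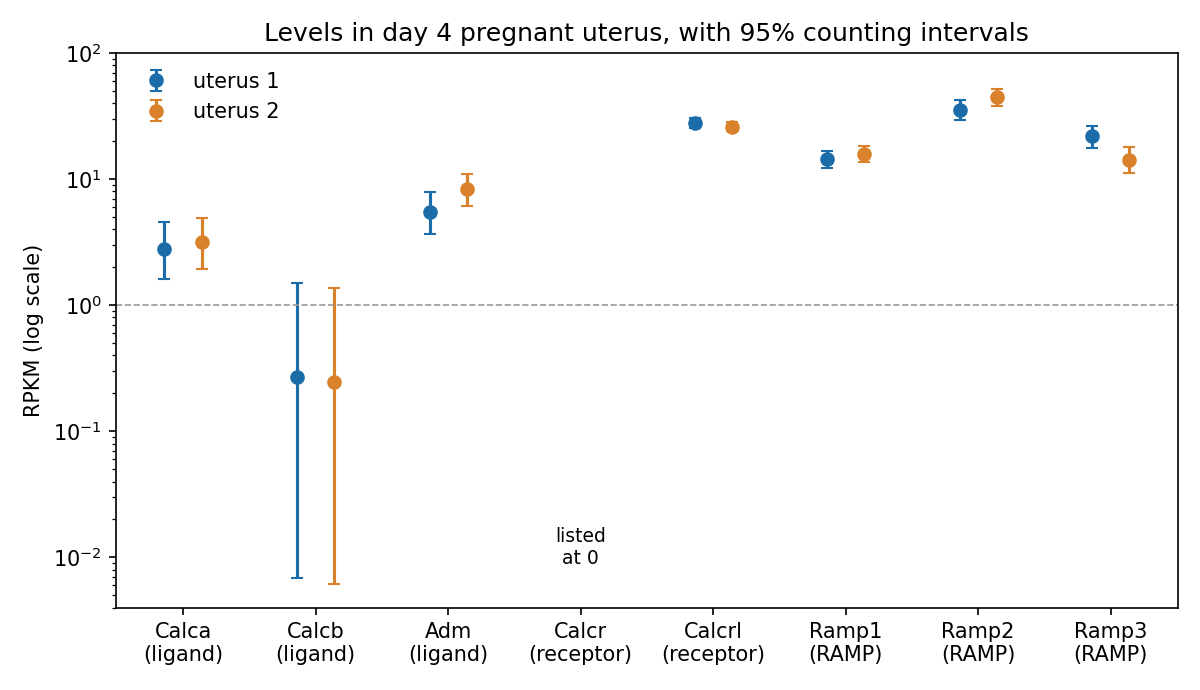
Level of each gene in RPKM on a log axis, with uterus 1 in blue and uterus 2 in orange. Bars are 95% Poisson intervals from recovered reads, the dashed line marks 1 RPKM, and Calcr, listed at 0, has no point. The RAMP genes and Calcrl lie between 14.2 and 44.7 RPKM, above Adm, Calca and Calcb.

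Among the ligands, Adm was highest, Calca lower and Calcb close to the limit of what this depth can show. Adm, which encodes adrenomedullin, measured 5.48 RPKM in the first animal and 8.34 RPKM in the other, from 29 and 49 reads, a mean of 6.91 ± 2.02 RPKM (SD, n = 2). Calca encodes calcitonin and, by alternative splicing of the same transcript, alpha-CGRP. It lay at 2.80 and 3.16 RPKM on 16 and 20 reads, a mean of 2.98 ± 0.250 RPKM. Adm was above Calca in both animals, by 1.95-fold and 2.64-fold. The counting intervals of these 2 genes overlapped in uterus 1, where Adm ran from 3.67 to 7.87 RPKM and Calca from 1.60 to 4.55 RPKM. Calcb, which encodes beta-CGRP, was listed at 0.271 and 0.244 RPKM, which is 1 read in each library. Its interval ran from 0.00686 to 1.51 RPKM in uterus 1, so Calca was higher than Calcb by 10.3-fold and 12.9-fold in these libraries on very few Calcb reads.

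The 3 ligand genes all lie on chromosome 7. On mouse build NCBIM37, Adm (NM_009627) spans 117771183 to 117773333 on the plus strand, Calca (NM_007587) spans 121776805 to 121779871 on the minus strand and Calcb (NM_054084) spans 121862157 to 121866879 on the plus strand. Calca and Calcb point away from each other, with their starts 82286 bases apart, and Adm lies 4003472 bases from Calca. The deposited RPKM of Calca was divided by a length of 1489 bases. The union of its annotated exons is 1480 bases, and it holds the last exons of both transcript forms, the 4-exon form of 870 bases and the 5-exon form of 992 bases. The last exon of the 5-exon form (121774994 to 121775419) lies beyond the deposited end of the gene at 121776805. The length used is near the union but not equal to it. The single value of Calca may thus pool calcitonin and alpha-CGRP transcripts, and the table does not separate them. Divided by the 870 bases of the form that ends where the deposited gene ends, all reads would give 4.80 and 5.40 RPKM. These values are still below Adm in each uterus, but they rest on 16 and 20 reads. The intervals of Calca and Adm overlapped in uterus 1 already at the deposited length, so the order there is not settled. Reads on the last exon of the 5-exon form would have to be left out, and their number is not known.

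Sensory nerve endings are a known source of CGRP and the C cells of the thyroid a known source of calcitonin. Of 6 genes of peripheral neurons, 1 was detected (Uchl1, at 1.59 and 2.25 RPKM), where 58.4% of all genes were. Tac1, Th and Scn10a were listed at 0, and the list summed to 2.45 and 2.89 RPKM. Of 3 genes found in thyroid C cells, 1 was detected (Ret, at 1.35 and 1.18 RPKM), while Chga was listed at 0, and the list summed to 1.56 and 1.18 RPKM. The part of nerve endings and C cells in the Calca and Calcb values was not tested. It cannot be read from these lists, since the cell bodies of sensory nerves and the C cells lie outside the uterus.

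The 250 bases before the start of Calca, Calcb and Calcr are shown because these are the only 3 of the 8 genes whose window holds TGACG, the short core of the cyclic AMP response element, on either strand. They were read from build NCBIM37 in the direction of the gene, and capitals mark TGACG.
Calca, chr7:121779872-121780121, minus strand: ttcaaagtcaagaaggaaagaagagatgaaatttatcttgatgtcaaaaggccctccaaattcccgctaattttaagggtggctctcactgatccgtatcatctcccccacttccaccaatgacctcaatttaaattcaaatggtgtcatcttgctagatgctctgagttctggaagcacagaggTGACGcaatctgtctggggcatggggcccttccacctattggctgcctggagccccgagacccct
Calcb, chr7:121861907-121862156, plus strand: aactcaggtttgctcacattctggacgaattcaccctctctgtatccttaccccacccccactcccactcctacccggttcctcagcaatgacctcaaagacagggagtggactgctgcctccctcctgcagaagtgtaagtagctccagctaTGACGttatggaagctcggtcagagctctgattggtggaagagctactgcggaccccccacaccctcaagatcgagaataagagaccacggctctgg
Calcr, chr6:3714714-3714963, minus strand: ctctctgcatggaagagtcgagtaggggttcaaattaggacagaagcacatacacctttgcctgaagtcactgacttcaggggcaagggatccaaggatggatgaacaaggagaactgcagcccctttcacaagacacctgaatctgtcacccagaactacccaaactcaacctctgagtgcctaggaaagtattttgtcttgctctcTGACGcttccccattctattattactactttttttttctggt

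In these windows TGACG begins 65 bases before the start of Calca, 97 bases before that of Calcb and 42 bases before that of Calcr. The same letters occur in 20.7% of the windows of 22663 genes, so they are common. The full element TGACGTCA, which contains them, occurs in 2.10% of windows and in none of the 8. The GC box GGGCGG, which the factor Sp1 can bind, was found on either strand in 43.3% of all windows and in those of Adm, Calcrl, Ramp2 and Ramp3. The core of the hypoxia response element, ACGTG, was found in 17.7% of windows and here only in that of Ramp2. TATAAA, the TATA box, was searched in the last 50 bases on the gene's strand only. It occurs there in 3.26% of all windows and in none of the 8. The number of CpG dinucleotides was 21 for Ramp2 and 13 for Ramp3, against a median of 10 over all windows (quartiles 3 and 19), and 2 to 7 for the other 6 genes. In the annotation the Ramp2 window is exon throughout, all 250 bases, and the windows of Calcrl, Ramp3 and Adm hold 145, 12 and 8 exon bases, so the letters counted there are not upstream sequence alone. These matches are a description of letters and say nothing of whether a factor binds there.

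Of the receptor genes, Calcrl was detected and Calcr was listed at 0 in both uteri. Calcrl (NM_018782, chromosome 2, 84170783 to 84265423, minus strand) measured 27.9 and 26.1 RPKM, a mean of 27.0 ± 1.29 RPKM (SD, n = 2). It rested on 507 and 526 reads, the most of the 8 genes, and its intervals of 25.5 to 30.5 RPKM and 23.9 to 28.4 RPKM overlapped. It ranked 2664 of the 17426 genes above 0 in at least 1 uterus, so 84.7% of those genes had a lower mean. Calcr (NM_007588, chromosome 6, 3635720 to 3714713, minus strand) gives no fold against Calcrl, since only a listed 0 is known for it. Relative to its ligands, Calcrl was 5.10-fold and 3.13-fold above Adm.

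Of the 15 class B receptor genes looked up, 4 were detected (26.7%, against 58.4% of all genes): Pth1r, Calcrl, Vipr2 and Adcyap1r1. Pth1r, the receptor for parathyroid hormone and its related peptide, was the only one above Calcrl, at 31.9 and 35.7 RPKM. Its values lay above both Calcrl values, and it was the gene of the family nearest to Calcrl in mean RPKM. They rest on 333 and 414 reads, and counting error was not weighed in this order. The next was Vipr2, a receptor for vasoactive intestinal peptide, at 3.47 and 2.92 RPKM. Adcyap1r1, the receptor for PACAP, lay at 1.63 and 1.88 RPKM. Vipr1 lay at 0.319 and 0.863 RPKM on 6 and 18 reads, and 6 others held 1 to 4 reads in all. Calcr, Crhr1, Ghrhr and Glp1r were listed at 0 in both uteri.

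**Figure D2:**
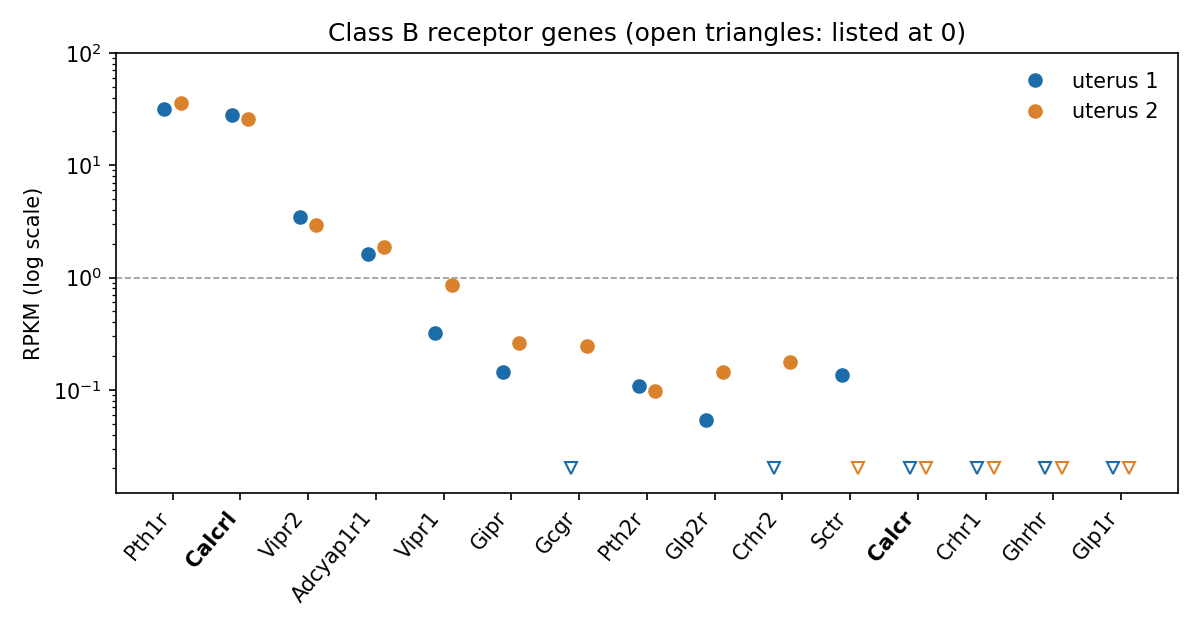
RPKM of 15 class B receptor genes on a log axis, ordered by mean, with uterus 1 in blue and uterus 2 in orange. Open triangles at the foot mark values listed at 0, and the dashed line marks 1 RPKM. Pth1r and Calcrl stand above 25 RPKM and every other gene lies below 4 RPKM.

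All 3 RAMP genes were detected, and by the deposited values Ramp2 was the highest of the 8 genes. Ramp2 (NM_019444, chromosome 11, 101107648 to 101109564, plus strand) lay at 35.3 and 44.7 RPKM, a mean of 40.0 ± 6.67 RPKM (SD, n = 2), on 118 and 166 reads. Ramp3 (NM_019511, chromosome 11, 6558536 to 6577478, plus strand) lay at 21.8 and 14.2 RPKM on 102 and 74 reads, a mean of 18.0 ± 5.34 RPKM. Ramp1 (NM_178401, chromosome 1, 93076399 to 93103367, plus strand) lay at 14.4 and 15.9 RPKM on 167 and 204 reads, a mean of 15.1 ± 1.02 RPKM. Both Ramp2 values were above both values of the other RAMP genes, whereas Ramp3 was the higher of the remaining pair in uterus 1 and the lower in uterus 2. In the annotation, an exon of Gm11978 on the opposite strand shares 95 bases with Ramp3 exons inside its deposited span. Gm11978 itself was listed at 0.399 and 0 RPKM, and since the use of strand in counting is not given, reads there cannot be told apart. Annotated exons of Ramp2 share 1103 bases with those of Vps25 on the same strand, 0 of them inside the deposited span of Ramp2. Vps25 lay at 30.3 and 27.3 RPKM, and whether reads there were counted for Ramp2 is not known.

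The RAMP genes together exceeded Calcrl. Their summed level was 71.5 and 74.8 RPKM, which is 2.56-fold and 2.87-fold the level of Calcrl. Ramp2 by itself was 1.26-fold and 1.71-fold Calcrl, Ramp3 0.781-fold and 0.546-fold, and Ramp1 0.516-fold and 0.608-fold. Ramp2 made up 49.4% and 59.8% of the summed RAMP level, a mean of 54.6% ± 7.36 (SD, n = 2). Ramp3 made up 30.5% and 19.0%, and Ramp1 20.2% and 21.2%. These are shares of transcript, not of protein or of receptor complexes.

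The place of Ramp1 in this order depended on the length that its reads were divided by. The recovered length of Ramp1 was 3022 bases, exactly the union of all exons of its 3 annotated transcripts. That union includes an alternative last exon of 2091 bases (93119683 to 93121773) that begins beyond the deposited end of the gene at 93103367. The annotated 4-exon transcript that shares both deposited ends is 931 bases long. Divided by this length, the same reads would give 46.8 and 51.5 RPKM, or 49.1 ± 3.32 RPKM, above both values of Ramp2. Ramp1 would then hold 45.0% and 46.6% of the summed RAMP level and Ramp2 34.0% and 40.5%. The table gives 1 value per gene, so how the 167 and 204 reads fall on the exons is not known from it. The order of Ramp1 against Ramp2, Ramp3 and Calcrl is therefore not settled by these values. For Ramp2 the smallest length that gives whole reads was 436 bases, with 59 and 83 reads. The length of 872 bases was used, which is near annotated transcripts of 891 and 899 bases, although neither covers the whole deposited span and the 1 that does is 1178 bases long. The RPKM is the same with 436 or 872 bases, but the counting intervals differ.

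**Figure D3:**
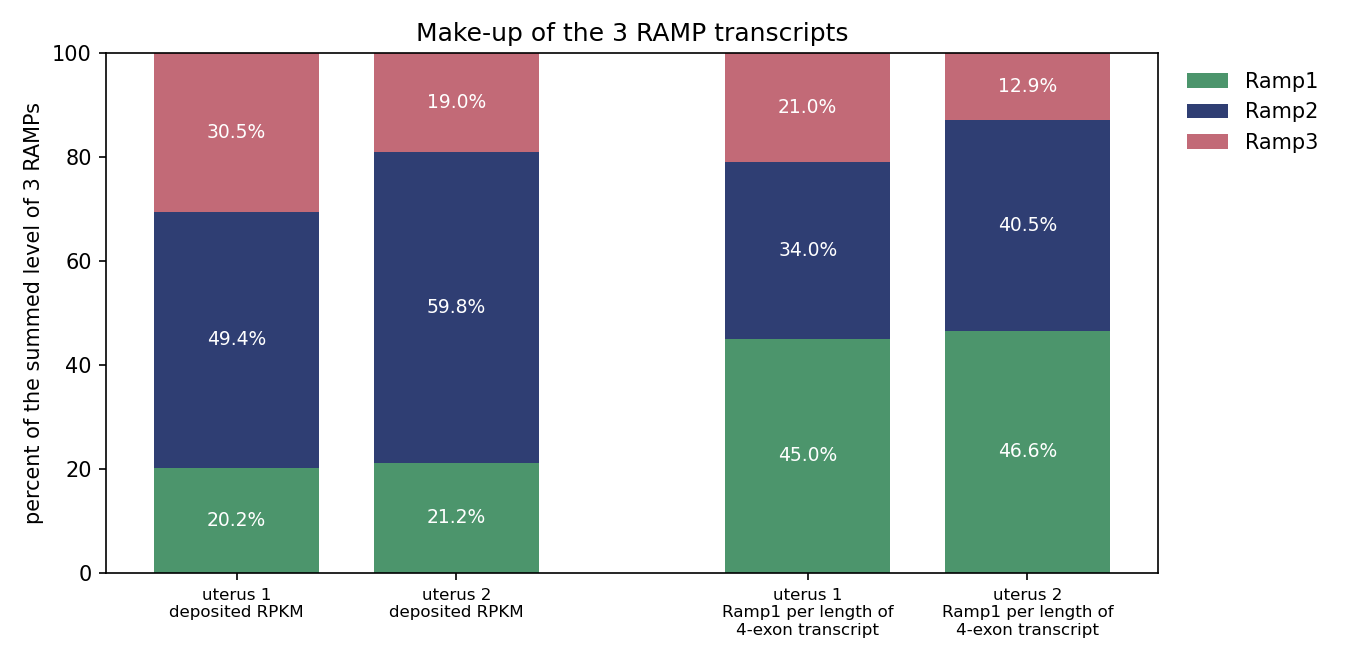
Share of Ramp1, Ramp2 and Ramp3 in their summed level, in percent, for each uterus. The left pair of bars uses the deposited RPKM and the right pair divides the Ramp1 reads by the 931 bases of its 4-exon transcript. Ramp2 is the widest band on the left (49.4% and 59.8%) and Ramp1 on the right (45.0% and 46.6%).

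Calcrl and Ramp2 are known to be high in the endothelium of blood and lymph vessels. All 6 blood endothelial genes were detected, and they summed to 193 and 186 RPKM. The highest were Pecam1 at 50.7 and 50.9 RPKM, Cdh5 at 44.4 and 46.0 RPKM and Emcn at 40.2 and 40.0 RPKM. Of 4 lymphatic genes, Lyve1 (8.10 and 7.30 RPKM) and Flt4 (5.58 and 5.27 RPKM) were detected, Prox1 lay at 1.14 and 0.966 RPKM, and Ccl21a was listed at 0. All 5 epithelial, 5 smooth muscle and 4 stromal genes were detected too, with medians of 49.5, 282 and 501 RPKM. Over all genes, 58.4% were detected, with a median of 3.23 RPKM. The part of each cell type in the receptor levels was not tested, since whole tissue gives 1 value for all cells.

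In order of mean RPKM, the genes ran Ramp2, Calcrl, Ramp3, Ramp1, Adm, Calca and Calcb, and Calcr, listed at 0, has no place in it. By the deposited values, Ramp3 and Ramp1 were the only neighbours whose ranges over the 2 uteri overlapped. Ramp3 was 1.51-fold Ramp1 in uterus 1 and 0.898-fold in uterus 2. Counting error was wider than that range for some neighbours. The intervals overlapped in at least 1 uterus for Ramp2 against Calcrl, Calcrl against Ramp3, and Adm against Calca. They were apart in both uteri for Ramp1 against Adm and for Calca against Calcb. Among all genes above 0, the share with a lower mean was 91.0% for Ramp2, 75.1% for Ramp3, 70.1% for Ramp1, 48.8% for Adm, 33.4% for Calca and 10.9% for Calcb.

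The 2 animals were close for Calcrl, Ramp1 and Calca, and further apart for Ramp3 and Adm. Ratios of uterus 2 to uterus 1 are given on a log2 scale with 0.1 RPKM added to each value, which understates the change of low genes. Ramp3 had a log2 ratio of -0.61 (95% counting interval -1.07 to -0.17), and Adm had 0.60 (-0.09 to 1.32). The ratio was 0.34 for Ramp2 (-0.01 to 0.69), 0.17 for Calca (-0.85 to 1.22), 0.14 for Ramp1 (-0.16 to 0.44) and -0.10 for Calcrl (-0.28 to 0.08). None of the 6 detected genes was 2-fold apart, where 2.6% of the 13647 genes whose mean reached 1 RPKM were. The reads of the 2 libraries were also compared by a two-sided exact binomial test with Benjamini-Hochberg adjustment over 15160 genes, which compares these libraries and not conditions. It called 5% of all genes and none of the 6 tested here, of which 2 had an unadjusted p under 0.05, against 16.1% of all genes. For Ramp3 the exact test gave p = 0.0052 and an adjusted p of 0.083, and for Ramp2 p = 0.04996 and an adjusted p of 0.31. The values of Ramp2 rest on the larger of its possible reads: on 59 and 83 reads the exact test gave p = 0.179 and an adjusted p of 0.631, which leaves Ramp3 alone of the 6 with an unadjusted p under 0.05. The intervals above are equal-tailed (Clopper-Pearson), so that of Ramp2 just reaches 0. The adjusted p of the exact test was 0.415 for Adm, and from 0.699 to 0.956 for the other 3.

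Ramp2 was higher and Ramp3 lower in uterus 2, so that Ramp2 was 1.62-fold Ramp3 in uterus 1 and 3.14-fold in uterus 2. Over all 15160 genes the same exact test called 2.32% higher and 2.68% lower in uterus 2. The marker genes of endothelium, epithelium, smooth muscle, stroma and uterus rested on 209 to 21332 reads per library, and at many reads a smaller ratio is called. Of the 6 endothelial genes 1 was called, Kdr, lower in uterus 2 (22.9 and 16.6 RPKM, adjusted p = 0.00017), and the log2 ratio of the list ran from -0.46 to 0.06. Of the 5 epithelial genes 1 was called, Krt18, higher in uterus 2 (70.4 and 94.3 RPKM, adjusted p = 0.00062), with a range of -0.09 to 0.42 and a median of 0.18. Smooth muscle had 1 of 5 called higher (Myh11, 0.16) and 1 lower (Acta2, -0.14). Stroma had 2 of 4 called higher (Dcn, 0.34, and Vim, 0.22) and 1 lower (Col1a1, -0.48). Of the 4 uterine genes, Pgr was called lower (-0.22).

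Of 4 genes of ovary and oviduct, tissues near the uterus, 3 were detected, and each of the 3 had its larger value in uterus 2, as had 4 of the 6 detected genes of the system (Adm, Calca, Ramp1 and Ramp2) and 50.1% of all detected genes. Ovgp1, an oviduct glycoprotein gene, lay at 5.78 and 9.31 RPKM, a log2 ratio of 0.68 with p = 0.0049 and an adjusted p of 0.0795 in the exact test. Inha had a log2 ratio of 0.59 and Star 0.39, and Cyp19a1 was listed at 0. None of the 3 was called, and the list of 4 summed to 10.5 and 15.9 RPKM. The part of these cell types and tissues in the values of the 8 genes was not tested, and in whole tissue fewer cells of a type and less RNA per cell cannot be told apart.

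**Figure D4:**
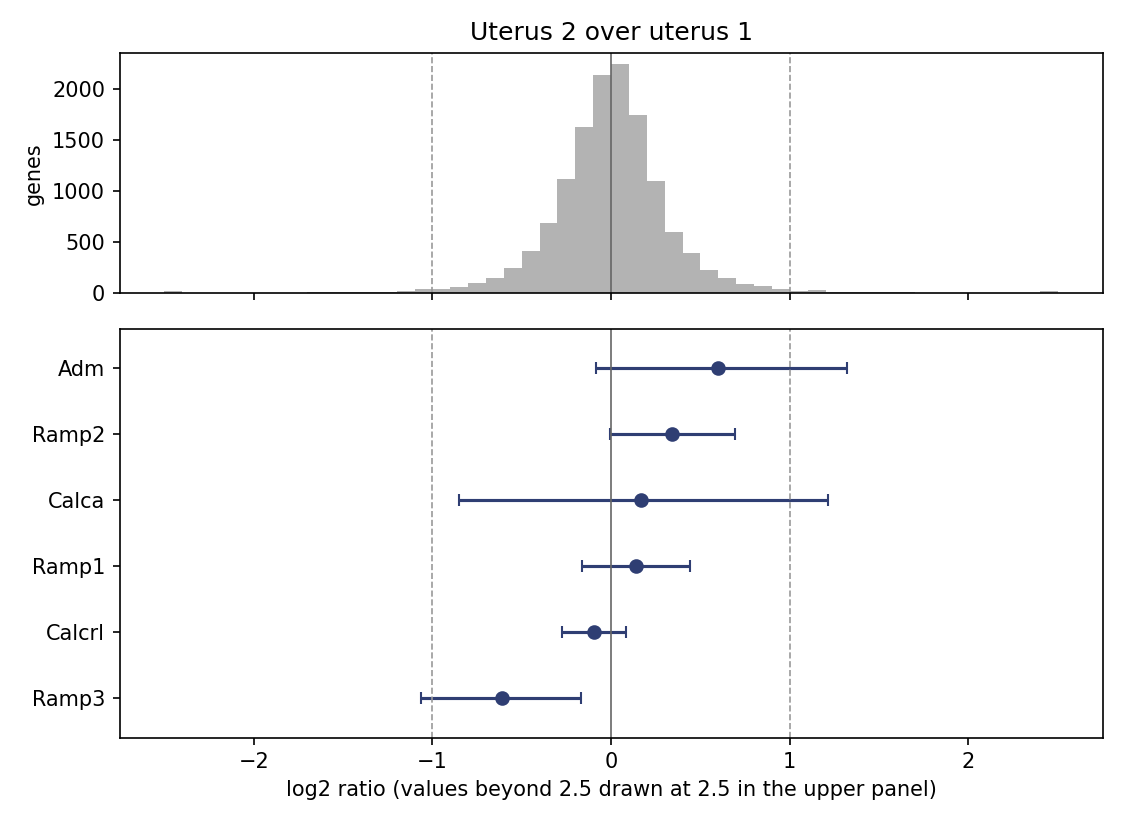
Log2 ratio of uterus 2 over uterus 1. The upper panel counts the 13647 genes whose mean reached 1 RPKM, and the lower panel shows the 6 detected genes with 95% counting intervals. Dashed lines mark 2-fold, and the interval of Ramp3 is the only one of the 6 that does not reach 0.

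The other genes of the pathway were mostly present. Of 36 genes in 4 lists, 30 were detected, with a median of 13.6 RPKM, against 58.4% and a median of 3.23 RPKM over all genes. None of the 30 was 2-fold apart between the uteri, against 2.6% of the genes whose mean reached 1 RPKM. The exact binomial test called 3 of the 32 that had enough reads, against 5% of all genes. Of these, 2 were higher in uterus 2 (Mme and Creb1) and 1 lower (Ece1).

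Among relatives of the 8 genes, Adm2 (adrenomedullin 2, also called intermedin) and Iapp (amylin) were listed at 0 in both uteri. Crcp, whose protein couples the CGRP receptor to its signalling, lay at 11.2 and 14.2 RPKM. The peptides are cut from longer precursors, and several need an amide group at their end, which the enzyme encoded by Pam adds. Of 7 processing genes, 5 were detected (71.4%, against 58.4% of all genes). Cpe, a carboxypeptidase, was highest at 68.1 ± 1.49 RPKM (SD, n = 2), followed by the convertase Pcsk5 at 43.8 ± 3.25 RPKM and Pam at 39.6 ± 0.666 RPKM. The 2 convertases of neuroendocrine cells, Pcsk1 and Pcsk2, lay below the threshold, at 0.207 and 0.0934 RPKM and at 0.220 and 0.446 RPKM.

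Genes that break down the peptides or act as decoys had a median of 19.9 RPKM. Mme encodes neprilysin, a membrane protease that cleaves CGRP and adrenomedullin among other peptides. It lay at 111 and 133 RPKM on 1809 and 2393 reads, with an adjusted p of 1.9e-06 in the exact binomial test. The protease gene Ece1 lay at 32.7 and 26.4 RPKM. The decoy receptor gene Ackr3, listed under its older symbol Cxcr7, lay at 12.3 and 16.7 RPKM. Gpr182, once described as an adrenomedullin receptor, lay at 0.770 and 1.53 RPKM on 5 and 11 reads, the 1 gene of the 5 in this list that was not detected.

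Of 21 genes of cyclic AMP signalling, 20 were detected, with a median of 10.3 RPKM. Gnas, which encodes the alpha subunit of Gs, was highest at 111 and 111 RPKM, followed by Prkar1a, a regulatory subunit of protein kinase A, at 77.2 and 76.3 RPKM. Prkacb, a catalytic subunit, lay at 29.1 and 28.3 RPKM. Adcy6 was the highest of the 9 membrane adenylyl cyclase genes at 26.3 and 25.5 RPKM, and Adcy8, on 1 read in each library, was the 1 gene not detected. Creb1, the transcription factor that protein kinase A phosphorylates, lay at 13.8 and 18.2 RPKM, with an adjusted p of 0.00055 in the exact binomial test. Log2 ratios of the 20 genes ran from -0.35 to 0.39.

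**Figure D5:**
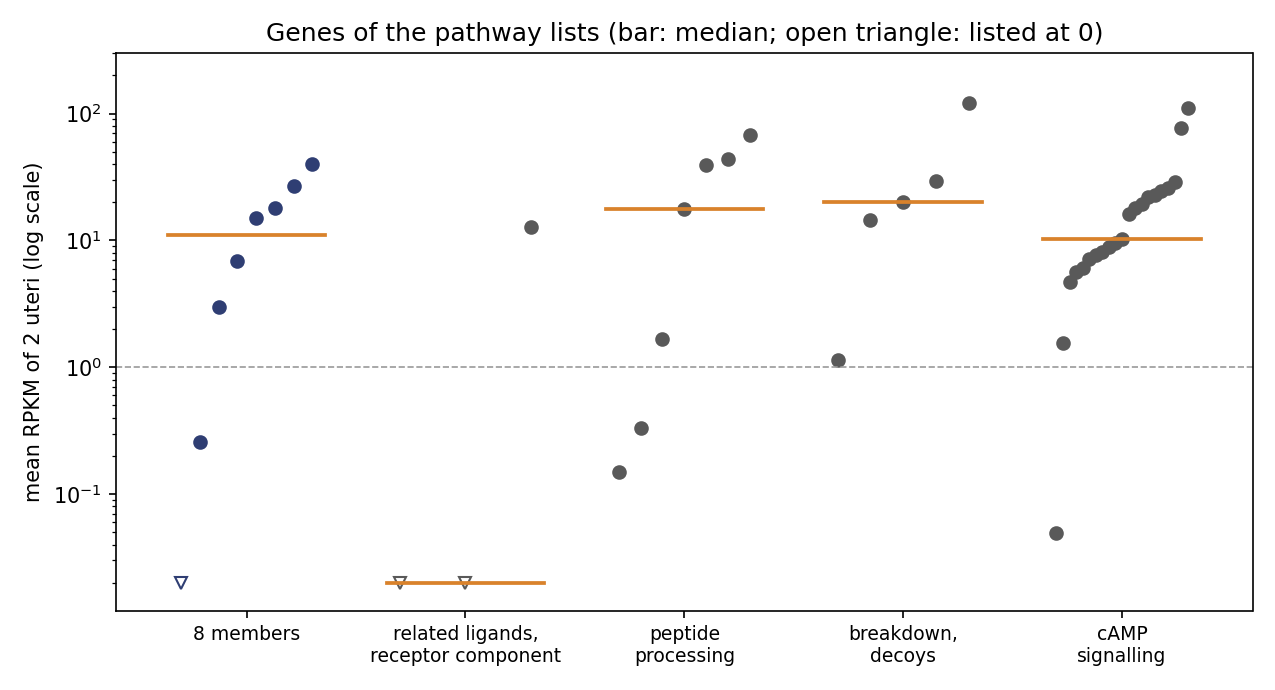
Mean RPKM over the 2 uteri on a log axis for the 8 genes and the 4 pathway lists, 1 point per gene. Orange bars are medians, open triangles mark genes listed at 0 and the dashed line marks 1 RPKM. Medians of processing (17.7), breakdown (19.9) and cyclic AMP (10.3) genes lie above 10 RPKM, and that of the related ligands at 0.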

How the data were processed

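The members and gene lists were chosen with earlier results of these data known. RNA was extracted with TRIzol, poly-A purified and sequenced on a HiSeq2500, per the labels' protocols and the series' design text. The submitters' processing notes name TopHat, edgeR and mm9, whereas the counter, the gene annotation and whether strand was used are not given in the sources used here. The authors deposited RPKM values per gene, and no other unit was used. Starts, counted from 0 in the file, are printed counted from 1.

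In single-exon genes (178 and 184 above 0, lengths from GENCODE M1 on NCBIM37), every value was, within 1e-04, a whole number of reads for scaling totals of 3834174 and 4256101. For each of 17426 genes the smallest length that made both reads whole was found, and a multiple of it was taken where that lay much nearer an annotated length. Recovered reads summed to 3903441 and 4337224, above the scaling totals, and the smallest possible reads to 3487449 and 3874908, so single multiples can be wrong. The steps were tested on simulated data, where 94.9% of 2921 genes were exactly recovered. In the deposited table, 29.0% of 16221 recovered lengths lay within 1% of the union of annotated exons. The simulated share therefore need not hold for these data. Genes with at least 6 reads entered the exact binomial test (SciPy 1.17.1). Replicates are separate animals per the series' design text.

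Named genes were the 8 members, up to 3 of the highest of each list described, and small counts in full. Other list genes (called, low or listed at 0) were named after their values were seen. Some genes first placed on these lists are not reported here and are left out of their counts. With 2 libraries no likeness of pattern can be computed. Alternatives covered pseudocounts, filters, thresholds, lengths and leaving out either library.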

Additional observations from a re-analysis of the deposited data

How the results depend on the processing

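Of 117 alternative values, 105 stayed within their limit, although either library alone always lies within 1 SD of a mean of 2. Levels and shares moved with the length: on the transcript with the deposited ends, an alternative chosen after seeing the data, Calca had 5.10 RPKM, Ramp1 49.1 RPKM, and the RAMP shares were 45.8% for Ramp1 and 37.2% for Ramp2. Without division by length these shares were 44.5% and 33.9%, with Ramp2 at 118 and 166 reads. With its smallest possible reads, 59 and 83, the share of Ramp2 would be lower and that of Ramp1 higher. Without either library, Ramp2 held 49.4% to 59.8% and Ramp3 19.0% to 30.5%. With NM_ identifiers alone Calca ranked 11143 and Calcb 14414, since fewer genes are ranked. Genes at least 2-fold apart numbered 355, and 153 with a pseudocount of 1, 1846 with no filter and 48 at a mean of 10 RPKM. With the smallest possible reads the binomial test called 581 genes and none of the 6 tested here. No paired analysis was possible because the labels give 1 group only. Depth limits Calcb, at 1 read per library. The cause of the listed 0 of Calcr was not tested.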

Other observations

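Over the whole table, 9405 genes above 0 had an annotated transcript whose ends lay within 10 bases of the deposited ends. The recovered length was at least 1.5 times that transcript for 208 of them (2.21%), Calca and Ramp1 included, and at least 3 times for 48 (0.510%), Ramp1 included. The median ratio of lengths was 1. With the smallest possible lengths, 185 genes (1.97%) were at 1.5 times or more.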
